A study of Homo sapiens with 9 samples.

Results

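The unedited and the edited form of a microRNA, miR-376a*, were compared directly in U87, an established human glioblastoma-derived cell line, over the genes that a single-gene probe set measures: 12587 of 19775 such genes passed a filter on low signal and were tested. The comparison used 6 of the 9 arrays of the series. Of these, 3 came from cells transfected with the duplex miR-376a*A and 3 from cells transfected with miR-376a*G. They were chosen by their labels, and are called the A arrays and the G arrays from here on. The other 3 arrays came from cells given a control duplex; they shared the estimate of the spread and are quoted where they place a value. All 9 cultures received 50 nM of duplex with a lipid reagent and were collected after 72 h, and none was left untransfected. The labels call the 3 arrays of a group biological replicates but do not name their cultures or days, so the p-values measure the spread between these arrays. Expression was read on Affymetrix human expression arrays as 1 linear signal per probe set and array. In bulk RNA of this kind, fewer cells of a state and less RNA per cell cannot be told apart.

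A microRNA guides an Argonaute protein to messenger RNAs that pair with its seed, the short stretch near its 5′ end, and those messengers are repressed. ADAR enzymes can convert adenosine to inosine in the double-stranded precursor, and inosine pairs as guanosine does, so an edit in the seed changes which messengers are matched. miR-376a* is the older name of a strand made from the 5′ arm of miR-376a precursors. Its genes lie in a large imprinted microRNA cluster on chromosome 14, and reduced editing of this microRNA has been described in gliomas. The A and G in the names of the duplexes are read here as the adenosine of the unedited form and the guanosine that stands in for inosine in the edited form.

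The mature 5′-arm strands of the miR-376a genes are shown because the comparison turns on their seed. They were taken from RefSeq (GRCh38.p14), run 5′ to 3′, and have the seed, bases 2 to 8, in capitals.
hsa-miR-376a-5p: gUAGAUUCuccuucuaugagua
hsa-miR-376a-2-5p: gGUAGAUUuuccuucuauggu
The first, of the gene MIR376A1 at chr14:101040788-101040809 on the + strand, is 22 bases long and has 2 adenosines in its seed, at positions 3 and 5 from its 5′ end. The second, of MIR376A2 at chr14:101040080-101040100 on the + strand, is 21 bases long and has 2 as well, at positions 4 and 6. No other mature human microRNA of the RefSeq table shared either seed (0 for each). The labels give neither the duplex sequences nor the position that differs between the A and G forms, so no edited sequence is shown.

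In the groups other than G, 1 A array and 1 control array stood apart from the rest of their groups. Pearson's r of A replicate 1, over the tested genes, was 0.925 and 0.934 against the other A arrays. Against control replicates 2 and 3 it was 0.987 and 0.990. For control replicate 1 it was 0.990 and 0.982 against A replicates 2 and 3. The G arrays correlated with each other at 0.986 to 0.988, with A replicate 1 at 0.906 to 0.913 and with A replicates 2 and 3 at 0.875 to 0.879. These correlations are across genes, which are not independent replicates. Whether these 2 arrays were exchanged was not tested, and the labels were kept. The overall counts and the gene lists are given as labelled and again without A replicate 1. The hybridisation controls, foreign RNAs added to every sample, had a mean log2 signal of 7.82 to 7.92 on the A arrays, 7.12 to 7.29 on the G arrays and 7.51 to 7.70 on the control arrays. The groups did not overlap, and the part of this difference in the results was not tested. Median signal was 18 to 21.1 on the A arrays and 21.7 to 24.6 on the G arrays.

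The comparison of the A with the G arrays asks which transcripts differ between the unedited and the edited form. It found genes of mitosis and DNA replication lower on the A arrays, together with several inflammatory cytokine genes, and genes of the hypoxia response, integrins and the receptor genes ACVR1 and TGFBR1 higher. As labelled, 4804 of the 12587 genes tested passed an adjusted p of 0.05 by limma with Benjamini-Hochberg adjustment, a background of 38.2%. Of them 2065 were higher on the A arrays (16.4% of genes tested) and 2739 were lower (21.8%). Without multiple-test adjustment 6054 genes had a p under 0.05. Genes passing that threshold are termed called below, and differences are A minus G on the log2(signal + 1) scale. The median difference of all tested genes was -0.14. Among the 8154 genes with a group mean signal of at least 100, termed bright, 3754 were called (46%), 1757 higher and 1997 lower. At least a 4-fold difference was reached by 152 of the bright higher genes and 93 of the bright lower ones, and at least an 8-fold difference by 35 and 4. In 6736 genes (53.5%) the 3 A arrays all lay beyond the 3 G arrays. Of the called genes 4789 were among these and 15 were not.

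The balance of higher and lower calls, though, depended on how the arrays were scaled. The deposited signals give every array the same trimmed mean, and 43.0% of calls were higher on that scale. Centring the arrays on their medians moved the median of all genes to 0.11 and the share of higher calls to 70.1%. Centring them on the hybridisation controls moved these to -0.81 and 7.62%, with 8882 genes called, and quantile normalization to -0.08 and 44.8%. A difference below is thus relative to the rest of the array. Of the pathway lists described below, the medians of G2/M, G1/S, hypoxia, integrins and NF-kB kept their sign under all 4 scalings. Centring on the hybridisation controls turned those of the mesenchymal, protease, TGF-β, ER-associated degradation, interferon, RAP and RAS, p53, small RNA, sterol, ribosomal, autophagy and housekeeping lists below 0. Centring on array medians turned those of the unfolded protein response, growth factor and oxidative phosphorylation lists above 0. Either centring moves the difference of every gene by the same amount, so whether a list turned followed from its starting size. Relative to the median of all genes, list medians were unchanged by either centring. Examples were -1.72 for G2/M, 0.78 for the mesenchymal list, 0.67 for TGF-β and 0.53 for proteases.

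The genes described next are the bright ones with the largest called differences among those whose A and G arrays did not overlap, so their separation is fixed by that choice. Periplakin (PPL), a linker of the cytoskeleton to cell junctions, had a signal of 128, 149 and 184 on A replicates 1 to 3 and of 2.79, 2.79 and 2.21 on the G arrays. Every A array lay far above every G array, and the control arrays, at 126 to 147, lay beside the A arrays. The difference was 5.41 (SE 0.18, adjusted p = 1.17e-06), a 42.6-fold higher value on the A side. The G signals were near the bottom of the scale, so the size depends on the pseudocount: with 16 added to each signal the difference was 3.17. DEPP1, a gene induced by FOXO transcription factors, had signals of 254, 418 and 331 on the A arrays and 8.65, 17.1 and 9.98 on the G arrays. The difference was 4.73 (SE 0.27, adjusted p = 8.89e-06), or 3.64 with a pseudocount of 16, since the G signals were below the array medians. TIMP3, an inhibitor of matrix metalloproteases, read 273, 1520.4 and 1783 on the A arrays and 54.6, 50.4 and 46.6 on the G arrays. A replicate 1 was the lowest of its group yet above all G arrays, and the difference was 4.14 (SE 0.77, adjusted p = 0.00298) as labelled and 5.0 (SE 0.57, adjusted p = 0.000229) without that array.

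ITGB3, the integrin β3 subunit, was nearly even within each group. Its signals were 675, 705 and 861 on the A arrays, 58.7, 56.4 and 57.7 on the G arrays and 625, 522 and 569 on the control arrays, a difference of 3.67 (SE 0.13, adjusted p = 1.17e-06). The other 6 probe sets of ITGB3 also differed upwards, by 1.34 to 3.26. CPA4, a secreted carboxypeptidase, read 719, 1144 and 1375 against 76.2, 73.4 and 92.7, and TMEM119, a membrane protein best known as a microglial marker, 90.0, 145 and 152 against 8.77, 7.77 and 10.1. Both were higher on all A arrays, with differences of 3.68 (SE 0.26, adjusted p = 2.42e-05) and 3.69 (SE 0.27, adjusted p = 2.49e-05). The others of the 12 largest were the sialyltransferase gene ST8SIA5 (4.76), the neuronal adhesion gene SLITRK6 (4.64), APCDD1L (4.06), the antisense transcript NR2F2-AS1 (3.98), the noncoding transcript EFCAB13-DT (3.97) and INHBA (3.61), the activin βA subunit. Most of these had G signals below the array medians, and a pseudocount of 16 gave smaller sizes: 2.52 for TMEM119, 3.55 for ST8SIA5, 2.56 for SLITRK6, 3.0 for APCDD1L, 2.49 for NR2F2-AS1 and 3.24 for EFCAB13-DT. For INHBA the A arrays read 12.7, 234 and 211, so replicate 1 was close to the G values of 4.89, 7.71 and 6.41. Its adjusted p was 0.0326 as labelled and 0.00113 without A replicate 1. The call of INHBA was lost with a pseudocount of 16 or 64 (adjusted p = 0.0527 and 0.0656), as the mean over its probe sets (0.0918), with the replicate block (0.0780) and without any one of A replicates 2 and 3 and G replicates 1 to 3 (0.107, 0.117, 0.0933, 0.0727 and 0.0816).

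In the other direction the largest difference was that of CSF3, the gene of granulocyte colony-stimulating factor. Its signal was 52.6, 167 and 158 on the A arrays and 1686, 1706 and 2119 on the G arrays, with 211, 82.3 and 68.1 on the control arrays. All 6 arrays that were not G lay far below the G arrays, and the difference was -4.02 (SE 0.50, adjusted p = 0.000383), 16.2-fold lower on the A side. CLDN1, the tight junction protein claudin-1, read 27.5, 14.5 and 12 against 193, 193 and 198, and CXCL1, a neutrophil chemokine, 70.5, 58.0 and 61.2 against 472, 409 and 536. Neither gene's groups came close to each other, and the differences were -3.45 (SE 0.26, adjusted p = 3.27e-05) and -2.88 (SE 0.16, adjusted p = 8.69e-06). The remaining 9 of the 12 were mostly cell cycle genes. They were the centromere genes CENPU (-3.05), OIP5 (-3.04) and CENPM (-2.95), the condensin gene NCAPH (-2.93), CDC20 (-2.86), E2F2 (-2.74), the kinesin gene KIFC1 (-2.69), the DNA polymerase theta gene POLQ (-2.67) and the phosphatase gene PTPRR (-2.65). A replicate 1 was clearly nearer to the G arrays than its group in 4 of these: its signal was 334 for CENPU, 114 for OIP5, 74.9 for NCAPH and 75.8 for KIFC1. The other A arrays read 62.7 and 54.8 for CENPU, 28.2 and 29.6 for OIP5, 24.5 and 25.1 for NCAPH, and 6.27 and 8.89 for KIFC1. The call of CENPU was lost without A replicate 2 or 3 (adjusted p = 0.0507 and 0.0562). That of KIFC1 was lost without A replicate 2 or 3 or G replicate 1, 2 or 3 (0.0954, 0.104, 0.0757, 0.0760 and 0.0781) and after centring on array medians (0.0548).

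**Figure D1:**
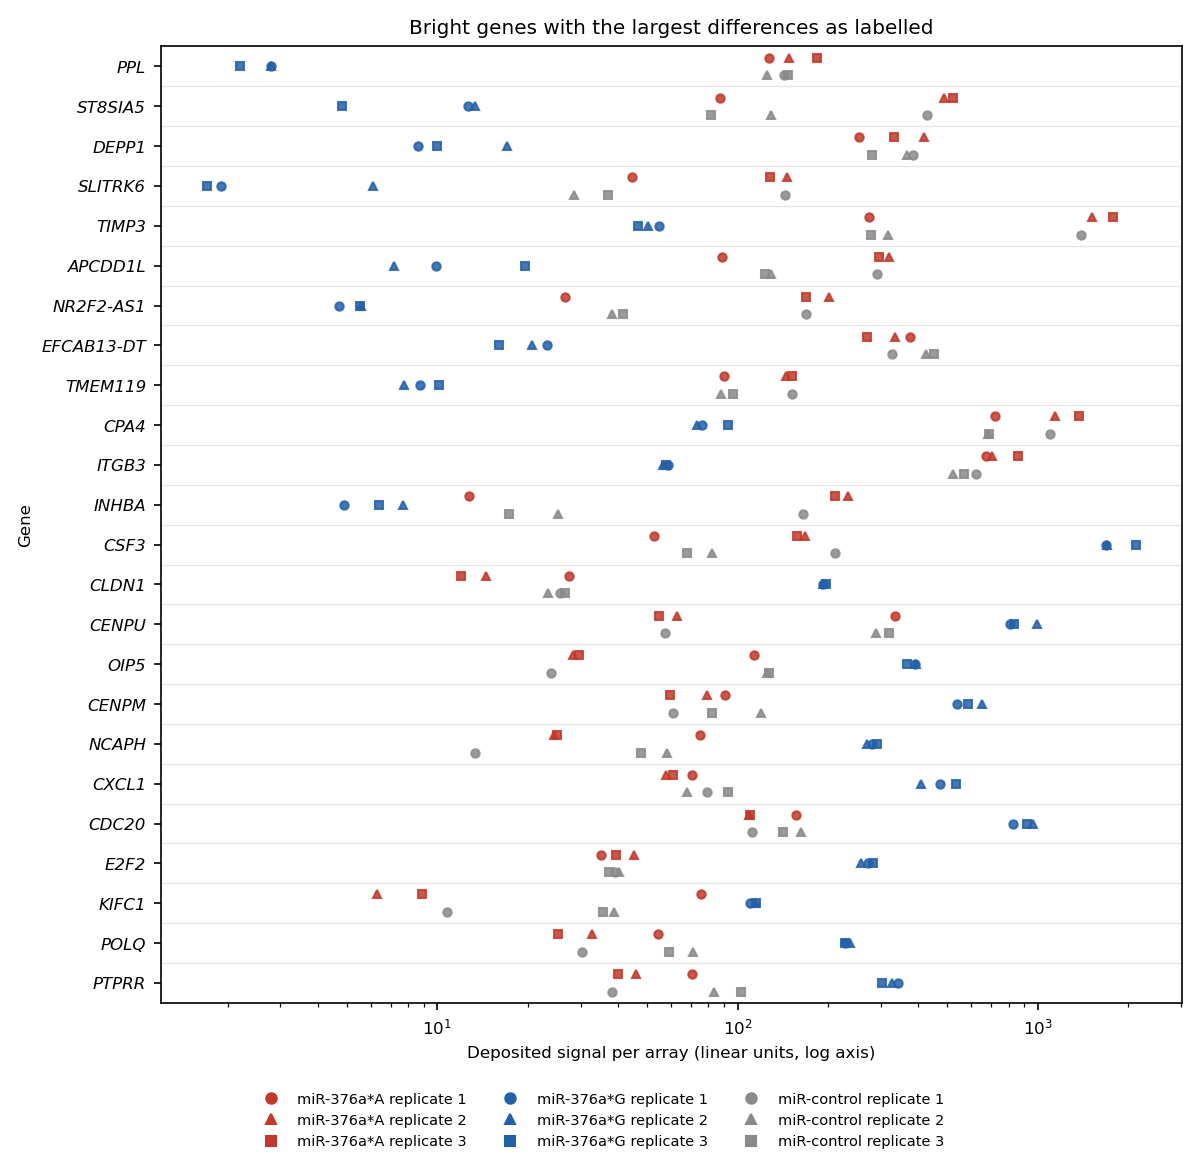
Deposited signal per array (linear units on a log axis) of the 24 bright genes with the largest called differences, 12 higher and 12 lower on the A arrays; colour gives the group and symbol the replicate, with no error bars because every array is drawn. The control arrays lie on the A side of the G arrays throughout, and A replicate 1 lies nearer to G than replicates 2 and 3 for genes such as TIMP3 (273 against 1520.4 and 1783) and KIFC1 (75.8 against 6.27 and 8.89).

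Genes of mitosis were lower on the A arrays nearly without exception. In the G2/M list, 41 of 43 genes were called lower and 0 higher, with a median difference of -1.86 against -0.14 for all genes. Of the other 2, ECT2, a gene needed for cytokinesis, differed by -2.0 (SE 0.74, adjusted p = 0.0595), and the condensin gene SMC4 by -0.02 (SE 0.14, adjusted p = 0.912). PLK1, the polo-like kinase that drives mitotic entry and spindle assembly, read 72.2, 63.5 and 62.7 on the A arrays and 384, 396 and 458 on the G arrays. The A signals lay within a narrow range below all G signals, a difference of -2.62 (SE 0.14, adjusted p = 7.57e-06). CDC20, an activator of the anaphase-promoting complex, read 156, 109 and 109.6 against 830.3, 967 and 919.9, and differed by -2.86 (SE 0.19, adjusted p = 1.66e-05). CCNB2, a mitotic cyclin, read 274, 253 and 225 against 1061, 1158 and 1050.4, and differed by -2.12 (SE 0.12, adjusted p = 8.69e-06). UBE2C, the ubiquitin-conjugating enzyme of the same complex, was bright on both sides, at 588, 714 and 592 against 1600.4, 1672 and 1543, with a difference of -1.35 (SE 0.10, adjusted p = 2.43e-05). A replicate 1 carried less of the shift than its group: the list's median difference from the mean of the G arrays was -1.37 on replicate 1 and -2.01 and -2.02 on replicates 2 and 3. On the control arrays it was -2.14, -1.49 and -1.54.

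Genes of the G1/S transition and DNA replication moved the same way and more evenly over the A arrays. Of 42 tested, 35 were called lower and 1 higher, with a median of -1.5, and the list's median was -1.37, -1.51 and -1.56 on A replicates 1 to 3. E2F2, a transcription factor of the S phase programme, read 35.1, 45.3 and 39.3 against 273, 258 and 283 and differed by -2.74 (SE 0.14, adjusted p = 6.71e-06). The A and control arrays, the latter at 37.2 to 40.4, occupied the same narrow range. CDT1, which loads the replicative helicase, differed by -2.48 (SE 0.13, adjusted p = 8.38e-06) and GINS2, a subunit of that helicase, by -2.34 (SE 0.14, adjusted p = 1.26e-05). RRM2, the inducible subunit of ribonucleotide reductase, read 744, 712 and 735 on the A arrays and 1902, 2265 and 2009 on the G arrays, a difference of -1.49 (SE 0.08, adjusted p = 8.69e-06). The member called higher was UNG, the uracil-DNA glycosylase (0.51), and the cyclin gene CCND1 differed by 0.09 (SE 0.30, adjusted p = 0.837); both were named after their values were seen. Both cell cycle lists were lower under all 4 scalings.

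Genes of the hypoxia response and glycolysis formed the opposite pattern. Of 35 tested, 30 were called higher on the A arrays and 0 lower, with a median of 1.36. PDK1, a pyruvate dehydrogenase kinase, had signals of 1106, 1082 and 1281 on the A arrays and 167, 179 and 169.8 on the G arrays. No A array came near a G array, and the difference was 2.74 (SE 0.10, adjusted p = 1.17e-06). The glucose transporter gene SLC2A1 read 694, 831 and 939.8 against 146, 171 and 154 and differed by 2.37 (SE 0.13, adjusted p = 8.38e-06), and BNIP3L, a mitophagy receptor, read 1837, 1949.8 and 1951 against 744, 775 and 709 and differed by 1.36 (SE 0.08, adjusted p = 8.69e-06). HK2, the hexokinase of the first glycolytic step, differed by 2.37 (SE 0.15, adjusted p = 1.26e-05) on its brightest probe set. Its 2 other probe sets, all under a signal of 60, lay the other way (-1.43 and -0.90), and the mean over its probe sets differed by 0.01 (adjusted p = 0.968). Further members, named after their values were seen, were the stress-responsive gene NDRG1 (2.99), the aldolase gene ALDOC (2.75), the angiogenic factor gene VEGFA (2.19) and the prolyl hydroxylase gene EGLN3 (1.97). Among glycolytic enzymes used by all cells, likewise named after their values were seen, LDHA differed by 0.34 (SE 0.11, adjusted p = 0.0315), GAPDH by 0.21 (SE 0.11, adjusted p = 0.152) and PKM by 0.03 (SE 0.16, adjusted p = 0.899). The list's median was 1.04, 1.39 and 1.54 on A replicates 1 to 3 and 1.36, 1.21 and 1.12 on the control arrays, relative to the G mean. It was higher under all 4 scalings, at 0.69 with the arrays centred on the hybridisation controls.

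Among 29 tested genes of integrins and focal adhesions, through which cells grip the matrix, 18 were called higher on the A arrays and 1 lower, with a median of 0.83, or 0.17 when the arrays were centred on the hybridisation controls. The share called was 65.5%, against 38.2% of all genes and 46% of bright genes. Beside ITGB3, caveolin-1 (CAV1) read 2431, 3092 and 3057 against 859, 888 and 809.9 and differed by 1.74 (SE 0.11, adjusted p = 1.26e-05). Vinculin (VCL), which ties integrins to actin, read 1600.3, 1329 and 1407 against 527, 503 and 533 and differed by 1.47 (SE 0.11, adjusted p = 3.01e-05), and the integrin activator FERMT2 differed by 1.33 (SE 0.09, adjusted p = 2.27e-05). The gene called lower was FERMT1 (-0.67), a relative of FERMT2, and the integrin adaptor genes TLN1 (-0.15) and ZYX (-0.07) were not called; these 3 were named after their values were seen.

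TGF-β family genes, which code for secreted ligands, their receptors and the SMAD proteins that carry the signal to the nucleus, were called higher more often than lower, though 14 of 28 were not called. Of the rest 12 were higher and 2 lower (median 0.53). The share called was 50%, against 38.2% of all genes tested and 46% of bright genes. Among ligands, INHBA is described above and TGFB2 differed by 2.08 (SE 0.31, adjusted p = 0.001), whereas TGFB1 differed by -0.72 (SE 0.56, adjusted p = 0.332) and was not called; TGFB2 and TGFB1 were named after their values were seen. Among receptors, ACVR1, a type I receptor of activins and bone morphogenetic proteins, read 528, 547 and 615 on the A arrays and 64.7, 50.2 and 57.0 on the G arrays. The A and control arrays, the latter at 521 to 558, were alike in range, and the difference was 3.28 (SE 0.13, adjusted p = 1.4e-06). TGFBR1, the type I TGF-β receptor, read 561, 743 and 777 against 166, 188 and 174 and differed by 1.96 (SE 0.15, adjusted p = 3.16e-05), and the type II receptor BMPR2 differed by 1.55 (SE 0.12, adjusted p = 3.06e-05). Among signal carriers SMAD3 differed by 0.98 (SE 0.13, adjusted p = 0.000601), but by 0.31 (adjusted p = 0.111) with the arrays centred on the hybridisation controls, where the list's median turned to -0.14.

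The mesenchymal and matrix gene list changed with A replicate 1. As labelled, 15 of 30 were called higher and 1 lower (median 0.63), and without that array 25 were called higher and 2 lower (median 0.95). The shares called were 53.3% and 90%, against 38.2% and 44.5% of all genes and 46% and 54.9% of bright genes. The median difference from the G mean was 0.20 on A replicate 1, 0.93 and 0.97 on replicates 2 and 3, and 0.88, 0.14 and 0.22 on control replicates 1 to 3. SNAI2, a transcription factor of epithelial-mesenchymal transition, was even across the A arrays, at 865, 983 and 1055 against 212, 186 and 199, and differed by 2.27 (SE 0.12, adjusted p = 6.76e-06). Fibronectin (FN1) read 2739, 4065 and 3830.0 against 999.7, 1173 and 1150.2, and the collagen gene COL5A1 684, 1392 and 1493 against 156, 162 and 162. In both, A replicate 1 was the lowest A array and still above every G array, with differences of 1.66 (SE 0.16, adjusted p = 0.000104) and 2.81 (SE 0.28, adjusted p = 0.000131). TGFBI, a secreted matrix protein induced by TGF-β, differed by 1.05 (SE 0.10, adjusted p = 8.48e-05). The gene called lower in both fits was the basement membrane collagen COL4A2 (-1.52 and -1.16), named after its values were seen. With the arrays centred on the hybridisation controls the list's median turned to -0.04 as labelled.

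Of 25 proteases and inhibitors of matrix invasion 12 were called higher and 2 lower (median 0.39, turning to -0.28 with the arrays centred on the hybridisation controls). That is 56% called, against 38.2% of all genes and 46% of bright genes. The lower members were ADAMTS5, an aggrecan-degrading protease, at 127, 129 and 117 against 499, 593 and 526, and the membrane metalloprotease gene MMP16, at 97.9, 92.5 and 89.6 against 192, 198 and 190.0. They differed by -2.10 (SE 0.12, adjusted p = 8.89e-06) and -1.04 (SE 0.11, adjusted p = 0.000149). Among the higher ones beside TIMP3, the gelatinase gene MMP2 differed by 0.65 (SE 0.09, adjusted p = 0.000754) and the cathepsin gene CTSB by 0.39 (SE 0.06, adjusted p = 0.00169). With the arrays centred on the hybridisation controls these were -0.02 and -0.28, so their direction depends on the scaling. As the mean over its probe sets MMP2 was not called (adjusted p = 0.057).

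NF-kB signalling and inflammatory cytokine genes were mostly lower on the A arrays, with 15 of 26 called lower and 1 higher (median -0.88, lower under all 4 scalings). That is 61.5% called, against 38.2% of all genes and 46% of bright genes. Beside CSF3 and CXCL1, LIF, a cytokine of the interleukin-6 family, read 126, 127 and 143 against 436, 424 and 519, and the chemokine CXCL3 118, 155 and 177 against 583, 545 and 567. No A array reached a G array in either, and the differences were -1.79 (SE 0.14, adjusted p = 4.14e-05) and -1.93 (SE 0.20, adjusted p = 0.000168). The member called higher was TNFAIP2, a tumour necrosis factor induced gene, at 191, 209.8 and 178 against 84.6, 74.6 and 84.7 and 1.23 (SE 0.13, adjusted p = 0.00017), whose mean over its probe sets was not called (adjusted p = 0.159). The subunit genes REL, NFKB1 and RELA were named after their values were seen. REL and NFKB1 were not called as labelled (-1.09 and -0.85) and were called without A replicate 1 (-1.54 and -1.30), while RELA differed by -0.21 (SE 0.13, adjusted p = 0.246).

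Of the next 5 lists 36% to 46.4% were called, near the 38.2% of all genes, so their counts are given as a description. In the unfolded protein response, by which cells react to misfolded protein in the endoplasmic reticulum, 44.8% were called: 6 of 29 were higher and 7 lower, and 6 and 5 without A replicate 1. The stress sensor gene ATF6 read 619, 379 and 419 against 119, 113 and 121 (1.97), while the transcription factor gene DDIT3 read 146, 182 and 153 against 422, 439.8 and 445 (-1.44) and the asparagine synthetase gene ASNS differed by -1.77. In ER-associated degradation 46.4% were called, with 10 of 28 higher and 3 lower, and 9 and 3 without A replicate 1. HERPUD1 was at 1.49 on its brighter probe set but uncalled as the mean of its probe sets (0.72, adjusted p = 0.0600), EDEM2 was at 1.18 and the ubiquitin-conjugating enzyme gene UBE2J2 at -0.73; the list's median of 0.20 turned to -0.46 with the arrays centred on the hybridisation controls. Of 23 interferon-stimulated genes 39.1% were called, 6 higher and 3 lower, and 5 and 6 without A replicate 1. Their differences as labelled ran from -1.62 to 1.65, with the oligoadenylate synthetase-like gene OASL at 1.48 and IFI6 at 1.65. IFI44 was called lower (-0.47), but not with the arrays centred on their medians. Of 40 growth factor receptor and glioma pathway genes 42.5% were called, 10 higher and 7 lower, and 13 and 9 without A replicate 1. Differences in this list as labelled ran from -1.97, for the growth factor gene FGF5, to 3.22. The ephrin receptor gene EPHA2 was at -1.59. In the p53 list 36% were called, 5 of 25 higher and 4 lower, and 6 and 4 without A replicate 1. The death receptor gene TNFRSF10B differed by 1.46 (SE 0.09, adjusted p = 1.34e-05) and MDM2, the ubiquitin ligase that restrains p53, by -1.08 (SE 0.11, adjusted p = 0.000149).

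Of 19 tested genes that edit, cut and use microRNAs 31.6% were called, below the 38.2% of all genes, with 4 higher and 2 lower, and 4 and 3 without A replicate 1. ADAR, which encodes an adenosine deaminase of double-stranded RNA, read 597, 536 and 509.6 on the A arrays, 227, 251 and 250.2 on the G arrays and 468, 634 and 504 on the control arrays. The difference was 1.17 (SE 0.13, adjusted p = 0.000233), with no overlap. AGO2, the Argonaute with slicing activity, read 81.3, 92.5 and 100.2 against 244, 226 and 223 and differed by -1.33 (SE 0.22, adjusted p = 0.00151). DICER1, which cuts the precursor hairpin, differed by 0.51 (SE 0.09, adjusted p = 0.00248), but by -0.16 with the arrays centred on the hybridisation controls, and it was not called as the mean over its probe sets (adjusted p = 0.566). Of 25 oxidative phosphorylation genes 24% were called, 1 higher and 5 lower, and 1 and 6 without A replicate 1, with CYC1 of complex III lower (-0.88) and SDHD of complex II higher (1.5). Of 26 autophagy and lysosome genes 42.3% were called, 7 higher and 4 lower, and 7 and 7 without A replicate 1, with WIPI1 at 1.34 and ATG3 at -1.01. Of 18 cytosolic ribosomal protein genes 0 were called as labelled by limma, and 2 higher without A replicate 1. Of 13 housekeeping genes 4 were higher and 1 lower as labelled, and 8 and 1 without A replicate 1. These shares were 38.5% and 69.2%, beside 38.2% and 44.5% of all genes. The glycolytic gene PGK1 was at 0.56 on its brightest probe set and at 0.16 to 1.68 on its others. The largest RNA polymerase II subunit POLR2A was at -0.96. Of 8 imprinted genes listed around the miR-376 cluster 6 had a single-gene probe set and 2 passed the filter on low signal. BEGAIN differed by -0.29 (SE 0.16, adjusted p = 0.173) and was not called. The noncoding MEG3 differed by -0.05 (SE 0.26, adjusted p = 0.887) on its brightest probe set and was not called. On these probe sets neither gene was called without A replicate 1. The other tested probe sets of MEG3, all dim, were not called as labelled. Without A replicate 1 they differed by 1.499 and 1.753, called higher (adjusted p = 0.0155 and 0.0228), and by 0.507, not called (0.195).

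The median of the sterol and fatty acid synthesis genes changed sign with A replicate 1. Of 23 tested, 5 were called higher and 3 lower as labelled (median 0.09), and 3 higher and 5 lower without it (median -0.24). The share called was 34.8% in both fits, below the 38.2% and 44.5% of all genes. The list's median difference from the G mean was 0.42 on A replicate 1 and -0.19 and -0.24 on replicates 2 and 3. ACLY, which makes cytosolic acetyl-CoA, differed by 1.12 (SE 0.08, adjusted p = 1.95e-05) and the sterol sensor gene INSIG2 by 2.09 (SE 0.18, adjusted p = 6.46e-05), and both were called in either fit. In the list as a whole the control arrays divided like the A arrays, with -0.20 on control replicate 1 and 0.25 and 0.24 on replicates 2 and 3.

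**Figure D2:**
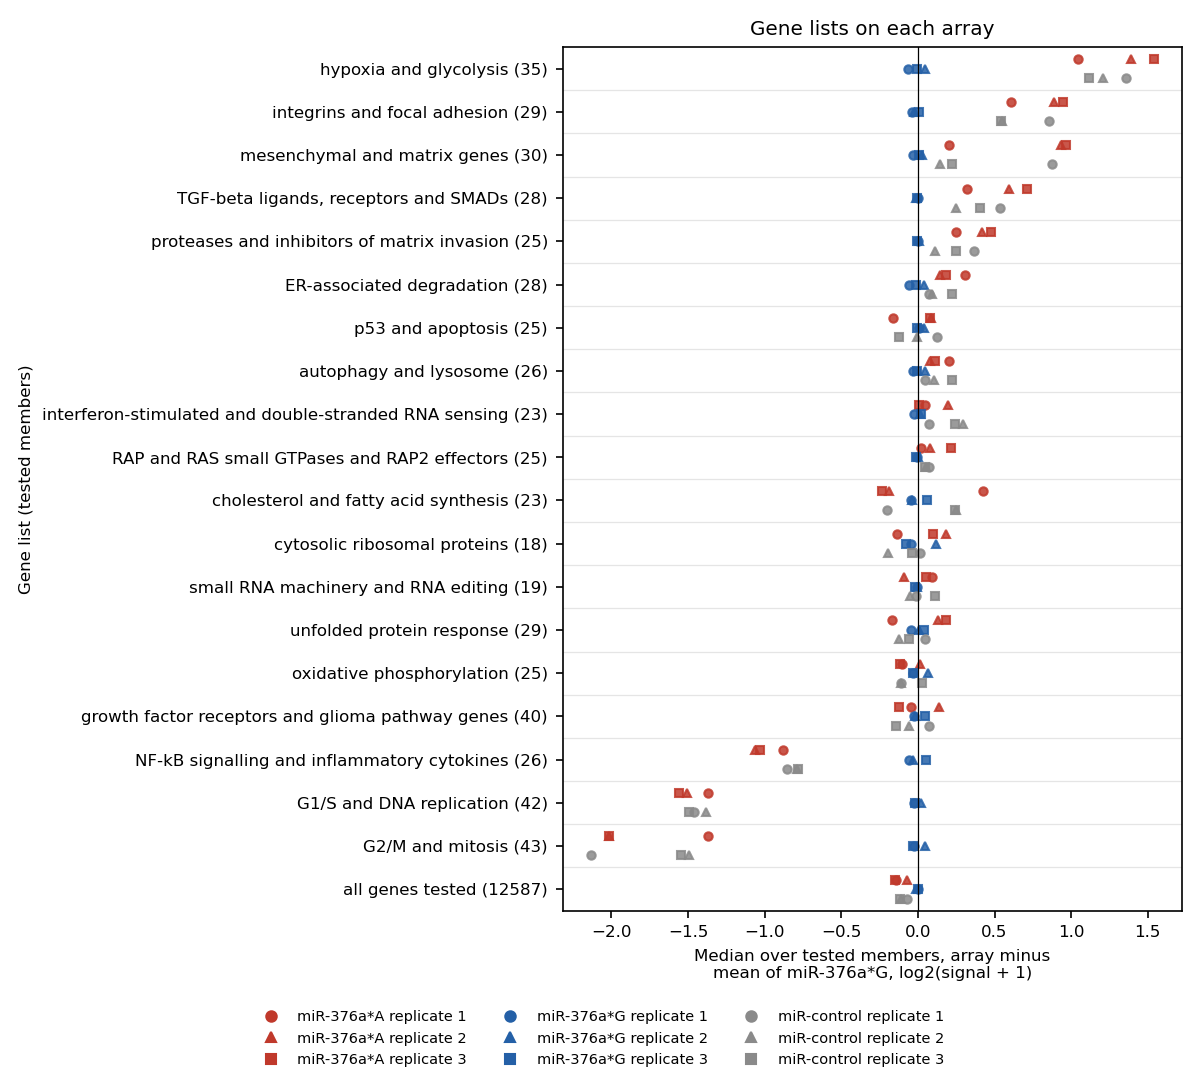
Median over the tested members of each gene list drawn (number of members in brackets) of an array's log2(signal + 1) minus the mean of the 3 G arrays; each point is 1 array, coloured by group with the replicate as symbol. The cell cycle and NF-kB lists lie left of 0 and the hypoxia list right of 0 on the 3 A and 3 control arrays, and A replicate 1 lies apart from replicates 2 and 3 for the G2/M list (-1.37 against -2.01 and -2.02) and the mesenchymal list (0.20 against 0.93 and 0.97); the medians of the cell cycle, NF-kB, hypoxia and integrin lists keep their sign under all 4 scalings and those of the other lists drawn turn under at least 1.

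Without A replicate 1, limma called 5602 of the 12587 genes (44.5%), 2437 higher (19.4%) and 3165 lower (25.1%). This fit was chosen because the array was known to stand apart, so its p-values are not independent of that choice. Of the genes called as labelled, 4383 were called again in the same direction, 421 were not called and 0 were called in the opposite direction. A further 1219 were called without the array alone, 966 of them bright. Among 8174 bright genes 4485 were called (54.9%), 2094 higher and 2391 lower. A difference of at least 4-fold was reached by 228 higher and 181 lower genes, and of at least 8-fold by 72 and 16. In 9062 genes (72%) A replicates 2 and 3 both lay beyond the 3 G arrays, a pattern easier to meet with 2 arrays than with 3. Without A replicate 3 as well, 3521 genes were called. Of the lists that kept their sign under all scalings, the genes called lower were 42 of 43 in G2/M, 37 of 42 in G1/S with 1 higher, and 18 of 26 in NF-kB with 2 higher. Those called higher were 33 of 35 in hypoxia with 0 lower, and 19 of 29 in integrins with 1 lower. Among lists whose sign depends on the scaling, 15 of 28 TGF-β genes were higher and 2 lower, and 13 of 25 proteases and inhibitors higher and 3 lower. In these lists 60.7% and 64% were called, against 44.5% of all genes and 54.9% of bright genes.

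The place of the array that was left out was described gene by gene, with no test, because its distance and that of A replicates 2 and 3 are both measured from the same 3 G arrays. Over the 4485 bright genes, its distance from the G mean as a share of the difference of A replicates 2 and 3 had a median of 0.68, with an interquartile range of 0.34 to 0.99. For control replicate 1 the median share was 0.94. Control replicates 2 and 3 had median shares of 0.66 and 0.67. The control arrays were in the fit that made the calls, through the estimate of the spread, so their shares are a description. Among the 228 genes at least 4-fold higher, A replicate 1 had at least 0.75 of the difference in 80, at most 0.25 in 33, and an intermediate share in 115. Among the 181 at least 4-fold lower these numbers were 46, 49 and 86.

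**Figure D3:**
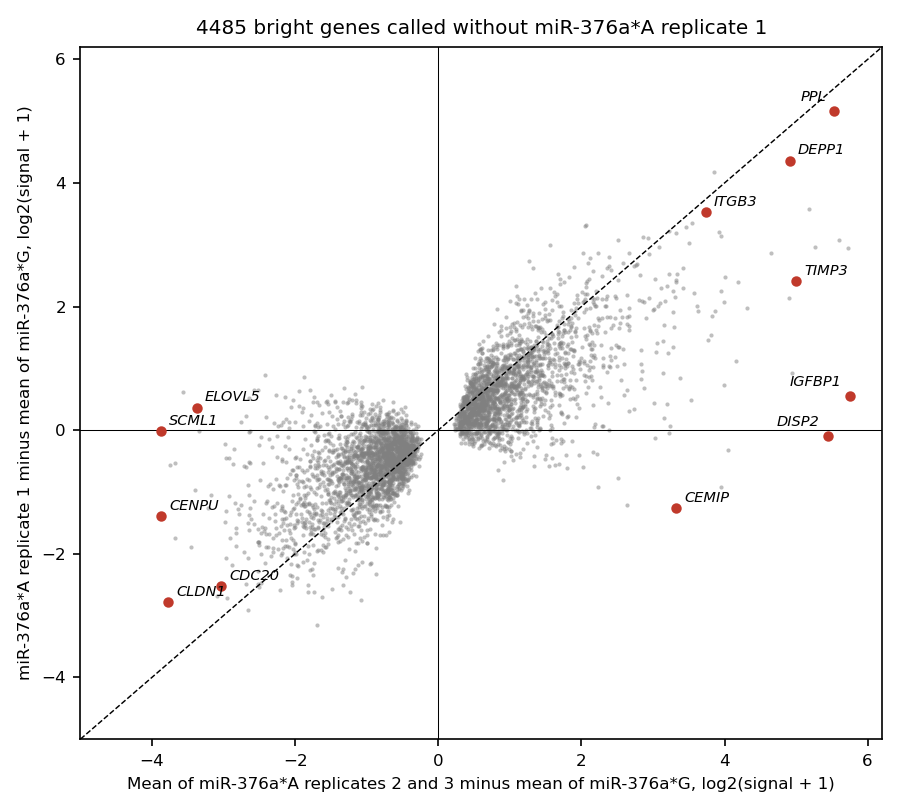
For the 4485 bright genes called without A replicate 1, the difference of A replicates 2 and 3 from the mean of the G arrays (x axis) against that of A replicate 1 (y axis), both in log2(signal + 1); each point is a gene, red points are named genes, and the dashed line marks equal differences. Points lie on or near the line for PPL and ITGB3, near a y value of 0 for DISP2 and SCML1, and below 0 for CEMIP.

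The 24 genes with the largest differences among those called only after A replicate 1 was left out are described next; that A replicate 1 differs from its group in them follows from how they were chosen. In all 24, control replicate 1 lay with A replicates 2 and 3, beyond A replicate 1 and control replicates 2 and 3. IGFBP1, a secreted binding protein of insulin-like growth factors, had a signal of 44.0, 1855 and 1468 on A replicates 1 to 3, 34.9, 20.8 and 35.8 on the G arrays and 1713, 177 and 80.3 on control replicates 1 to 3. A replicate 1 lay just above the G arrays, and control replicate 1 with A replicates 2 and 3. The difference was 4.02 (SE 1.47, adjusted p = 0.0579) as labelled and 5.75 (SE 1.02, adjusted p = 0.00216) without A replicate 1. DISP2, a relative of the Hedgehog release factor Dispatched, read 3.45, 221 and 194 on the A arrays, 4.27, 3.98 and 3.13 on the G arrays and 200.0, 3.44 and 3.55 on the control arrays. Signal was high on the same 3 arrays only, and the difference without A replicate 1 was 5.45 (SE 1.4, adjusted p = 0.0124), or 3.5 with a pseudocount of 16, as the low signals were far below the array medians. The synaptic vesicle fusion gene SNAP25 read 254, 1656 and 1825 on the A arrays, 197, 192 and 179 on the G arrays and 1498, 239.6 and 214 on the control arrays. It differed by 3.19 (SE 0.69, adjusted p = 0.00565) without A replicate 1. The others of the 12 highest were the microtubule regulator gene STMN3 (4.05), IGFBP4 (3.94), PXYLP1 (3.53), the hyaluronan-degrading gene CEMIP (3.32), the matrix gene THBS1 (3.24), LINC01119 (3.23), the glycogen phosphorylase gene PYGB (3.16), ELFN2 (3.03) and MGARP (3.01). With a pseudocount of 16 the difference was 2.77 for IGFBP4, 2.17 for PYGB and 2.07 for ELFN2. THBS1, CEMIP and ELFN2 lost the call under at least 1 setting that kept these arrays.

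Among the lower genes of this kind, ELOVL5, which elongates polyunsaturated fatty acids, read 1361, 89.2 and 114 on the A arrays, 1026, 1154 and 1003 on the G arrays and 93.3, 1147 and 1266 on the control arrays. A replicate 1 was above all G arrays and A replicates 2 and 3 were far below them, with a difference of -3.38 (SE 0.93, adjusted p = 0.0172) without it. SCML1, a Polycomb-related gene, read 794, 49.7 and 58.0 against 808, 848 and 757 on the G arrays, with A replicate 1 inside the G range, and differed by -3.88 (SE 0.95, adjusted p = 0.0102). SLC7A11, the cystine importer that supplies glutathione synthesis, read 454, 61.7 and 85.7 against 459.9, 478 and 447, and the small GTPase gene RRAS2 626, 72.6 and 96.9 against 579, 597 and 542. In both, replicate 1 was with or above the G arrays, and the differences without it were -2.65 (SE 0.62, adjusted p = 0.00788) and -2.76 (SE 0.75, adjusted p = 0.0162). SKP2, the ubiquitin ligase subunit that removes the cell cycle inhibitor p27, read 298, 56.5 and 46.7 against 426, 424 and 378 and differed by -2.97 (SE 0.58, adjusted p = 0.00347). The others were GCNT3 (-3.57), BRI3BP (-3.34), COMMD2 (-2.98), GXYLT1 (-2.92), ECT2 (-2.85), TTLL4 (-2.72) and TVP23B (-2.69). When a single G array was also left out, 5 of the 24 higher and lower genes of this kind lost the call. They were CEMIP, IGFBP4, THBS1, ELOVL5 and TTLL4. Of these 24 genes, 18 lost the call when A replicate 2 or 3 was left out as well, which leaves a single A array whose spread is assumed to be that of the other groups.

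**Figure D4:**
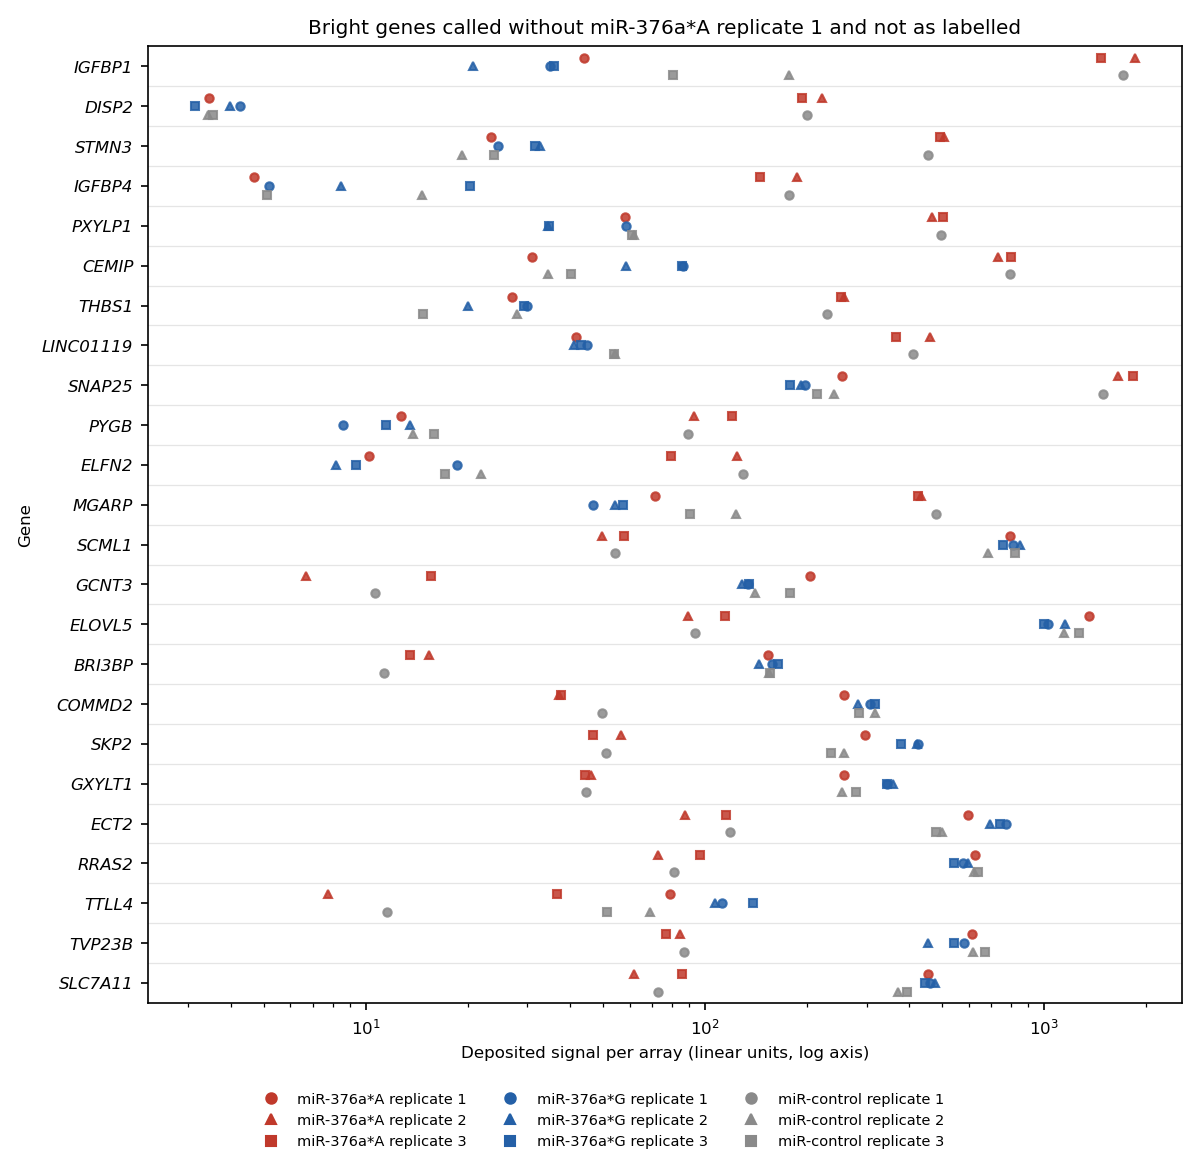
Deposited signal per array (linear units on a log axis) of the 24 bright genes with the largest differences among those called without A replicate 1 and not called as labelled; colour gives the group and symbol the replicate. In the upper 12 genes A replicates 2 and 3 and control replicate 1 are the high arrays, and in the lower 12 they are the low ones, while A replicate 1 lies near the G arrays and control replicates 2 and 3.

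Of the 4485 bright genes called without A replicate 1, that array lay within the G range in 328 (7.31%). In 292 (6.51%) it lay beyond the G arrays on the opposite side from A replicates 2 and 3. In 2 of these 292, picked out after the values were seen, both distances from the G mean were at least 2-fold. CEMIP read 30.9, 732 and 799.8 on the A arrays and 86.0, 58.6 and 85.6 on the G arrays, and IL11, a cytokine of the interleukin-6 family, 18, 275 and 272 against 45.8, 41.7 and 41.9. In each, A replicate 1 was below and A replicates 2 and 3 were above the G arrays, so the sign of a comparison depends on which A array is taken.

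Of genes reported elsewhere as targets of the 2 forms, 4 were listed for each form, and 3 of each had a single-gene probe set. Among these 6, TTK was called lower and SRSF11 higher as labelled, both of them reported for the unedited form. A gene repressed by one form alone would be lower on that form's arrays. These genes come from general knowledge of the field, as the labels name none. For the unedited form, RAP2A, a RAS-family GTPase, read 895, 412 and 531 on the A arrays and 899, 888 and 863 on the G arrays. A replicate 1 was within the G range and replicates 2 and 3 below it. The difference was -0.60 (SE 0.33, adjusted p = 0.183) as labelled and -0.92 (SE 0.30, adjusted p = 0.0323) without A replicate 1, and that call was lost when arrays were centred on their medians (adjusted p = 0.141) or any one further A or G array was left out (0.0712 to 0.193). Control replicate 1 was lower than all of these, at 353, against 702 and 784 for control replicates 2 and 3. On a second bright probe set of RAP2A, at 735, 375 and 578 against 562, 615 and 571, the difference was -0.10 as labelled and -0.32 without A replicate 1, neither called. TTK, a kinase of the spindle checkpoint, read 80.0, 24.6 and 30.4 against 205, 189 and 194. It differed by -2.29 (SE 0.44, adjusted p = 0.00374), within the same range as the other mitotic genes, of which it is one. Control replicates 1 to 3 read 33.6, 81.2 and 71.9 for TTK, beside the A arrays and below all G arrays. TTK was thus not lower on the A arrays than on the control arrays as a group. SRSF11, a splicing factor, read 872, 964 and 867 against 742, 661 and 674, a difference of 0.38 (SE 0.08, adjusted p = 0.00735) that is higher on the A arrays, but -0.29 with the arrays centred on the hybridisation controls.

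For the edited form, PRPS1, which makes the ribose phosphate of nucleotides, read 599, 329 and 369.9 on the A arrays and 514, 547 and 454 on the G arrays, and the groups overlapped, with a difference of -0.27 (SE 0.25, adjusted p = 0.422). SNX19, a sorting nexin, read 127, 109 and 119 against 125, 124 and 121 and differed by -0.06 (SE 0.12, adjusted p = 0.712). The zinc finger gene ZNF513, which was dim, read 38.8, 23.8 and 29.7 against 30.4, 21.7 and 25.3 and differed by 0.23 (SE 0.23, adjusted p = 0.446). On these probe sets none of the 3 was called with or without A replicate 1, where the differences were -0.53, -0.11 and 0.05 (adjusted p = 0.0672, 0.531 and 0.875). A second bright probe set of PRPS1 read 385, 183 and 220 against 330, 352 and 286. In the fit of all probe sets it differed by -0.37 (adjusted p = 0.326) as labelled. Without A replicate 1 it was called lower on the A arrays, at -0.68 (adjusted p = 0.0266). In the list of RAP and RAS GTPases and RAP2 effectors, 6 of 25 were called higher and 2 lower as labelled, and 6 and 4 without A replicate 1. These shares, 32% and 40%, were below those of all genes, 38.2% and 44.5%. The RAP2 effector kinase MAP4K4 differed by 1.26 (SE 0.19, adjusted p = 0.00113) and its relative MINK1 by -0.81 (SE 0.15, adjusted p = 0.00268). RALB, a GTPase that regulates secretion, differed by 0.54 (SE 0.08, adjusted p = 0.00106), but by -0.13 with the arrays centred on the hybridisation controls.

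**Figure D5:**
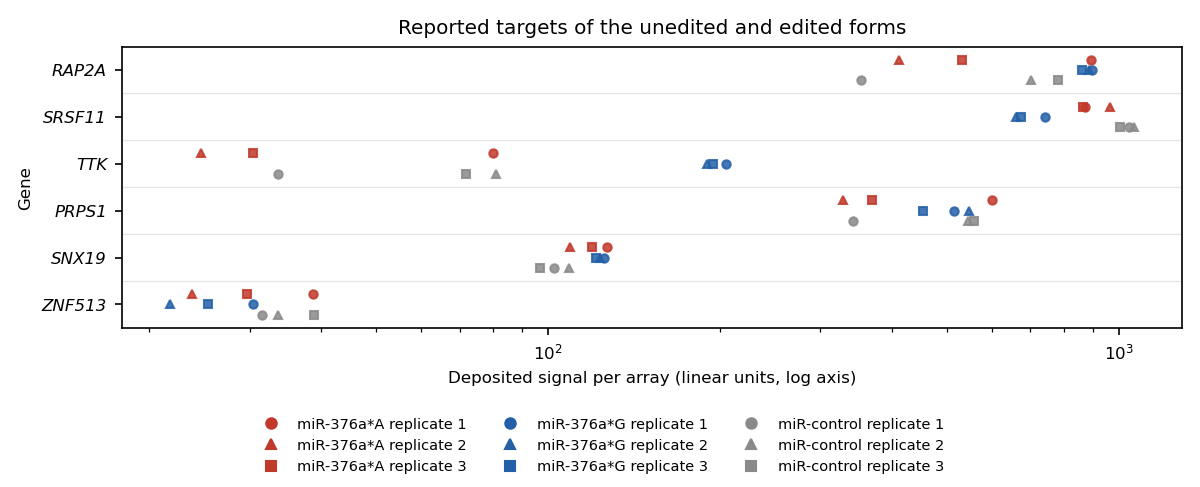
Deposited signal per array (linear units on a log axis) of 6 genes reported as targets of the unedited form (RAP2A, SRSF11, TTK) or the edited form (PRPS1, SNX19, ZNF513); colour gives the group and symbol the replicate. A and G arrays overlap for RAP2A and the 3 targets of the edited form, while TTK is lower and SRSF11 higher on all A arrays on the deposited scale; centring on the hybridisation controls turns the sign of SRSF11.

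Of 11 glioma line markers, all tested, 0 were below the array median on all arrays, with 6 called higher on the A arrays and 0 lower as labelled, and 10 and 0 without A replicate 1. That is 54.5% and 90.9% called, against 38.2% and 44.5% of all genes and 46% and 54.9% of bright genes. The median of 0.30 turned to -0.37 with the arrays centred on the hybridisation controls. Their summed signal was 22361 to 28742 on the A arrays, 17018 to 18673 on the G arrays and 20578 to 24804 on the control arrays. CHI3L1, a secreted glycoprotein abundant in mesenchymal glioma, read 952, 1297 and 1366 against 112, 121 and 115 and differed by 3.35 (SE 0.19, adjusted p = 8.69e-06). Of 10 neuronal markers with a probe set 6 were tested, of which 2 were higher and 1 lower as labelled and 3 higher and 0 lower without A replicate 1, and the 4 others were below the array median on all arrays. MAP2, a microtubule protein of dendrites, read 486, 212 and 185 against 83.1, 79.4 and 72.9, with A replicate 1 the highest, and differed by 1.76 (SE 0.41, adjusted p = 0.00948). The neuronal list summed to 2545 to 4062 on the A arrays and 2281 to 2476 on the G arrays. Of 8 astrocyte markers 4 were tested, 2 higher and 0 lower in both fits, with a median of 0.33 that turned to -0.34 with the arrays centred on the hybridisation controls. The share called was 50% in both fits for the neuronal and for the astrocyte markers, near that of all genes, so these counts are a description. The glutamate transporter gene SLC1A3 differed by 1.20 (SE 0.16, adjusted p = 0.000526) and connexin 43 (GJA1) by 0.84 (SE 0.14, adjusted p = 0.00177). The neuronal marker called lower was TUBB3, a neuronal tubulin, at -0.21 (SE 0.07, adjusted p = 0.049), and its call was lost in many settings, such as without A replicate 1 (0.107), with array weights (0.0917) and with only the 2 groups fitted (0.0755). As means over their probe sets MAP2 and SLC1A3 were not called (adjusted p = 0.0511 and 0.461). For the astrocyte list the summed signal was 1958 to 2748 on the A and 1481 to 1629 on the G arrays. Of the oligodendrocyte, endothelial, epithelial and leukocyte markers, 3, 3, 1 and 1 were tested, and as labelled the endothelial receptor gene KDR was called (-1.43). Without A replicate 1 the endothelial gene ENG was called too (1.56). The 3 other probe sets of the endothelial adhesion gene PECAM1, all dim, were called higher as labelled (1.88, 2.22 and 2.89), while its brightest one differed by -0.15 and was not. The part of these markers in the other results was not tested.

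Probe sets of the same gene did not always move together. For 2573 called genes with other tested probe sets, those 4766 other probe sets were called in the same direction in 2492 cases (52.3%), not called in 2132 and called in the opposite direction in 142, in 116 genes. Among 1272 genes with at least 2 bright called probe sets, 62 had such sets in opposite directions, and 3 of them, TAF9B, LGALS8 and RC3H2, by at least 2-fold each way; these counts were made after the values were seen. TAF9B, a subunit of transcription initiation complexes, read 99.9, 136 and 145 on the A arrays against 48.9, 46.4 and 47.9 on the G arrays for one probe set (1.37, SE 0.16), and 204, 60.9 and 78.9 against 720, 792 and 728 for another (-2.90, SE 0.41). Both were called, so the gene has no single direction on these arrays. LGALS8, the lectin galectin-8, gave 1.41 and -1.10, and RC3H2, an RNA-binding ubiquitin ligase, 1.22 and -1.04.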

How the data were processed

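Per the labels' protocols, RNA was extracted with Trizol, purified on a column and labelled with biotin. The submitters' processing notes name GCOS 1.4.0.036, and the deposited values are linear signal intensities per probe set, with a 2% trimmed mean near 100 on every array; the sources used here name no further step. Array number limits the precision, at 3 per group.

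Probe sets were named through the platform's gene table: of 54675, 41091 had a single gene, 1801 several and 11777 were not listed, giving 19775 genes. Each gene was read from the probe set with the highest mean, and kept if it was above the array median on at least 3 arrays. All 9 arrays were fitted on log2(signal + 1) with limma 3.58.1 in R 4.3.3 (lmFit, and eBayes with a trend, 1 coefficient per group), and p-values were adjusted over 12587 genes by Benjamini-Hochberg. Every adjusted p in the text is from limma. An exact permutation test of 3 against 3 arrays cannot go below p = 0.1. The fit was tested on simulated data that took each gene's spread from the G arrays. No simulated array stood apart as A replicate 1 did, so that test does not cover such arrays.

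Genes were named by rule: the 12 bright genes with the largest called differences in each direction whose arrays did not overlap, the 12 in each direction called only without A replicate 1, the 4 with the smallest p per gene list, and the reported targets; genes outside the rule are said to be so. The members and lists were chosen with earlier results of these data known. The main fit did not pair the arrays by replicate number. Alternatives covered pseudocount, filter, scaling, probe-set summary, trend, array weights, arrays fitted, replicate block and each array left out. The results of 1 gene list are not reported here.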

Additional observations from a re-analysis of the deposited data

How the results depend on the processing

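As labelled 4804 genes were called, and leaving out each array in turn gave 3497 to 5602, the highest without A replicate 1. Without that array 5602 were called, and leaving out a further array gave 3521 (without A replicate 3) to 7508 (without control replicate 1). Centring on the hybridisation controls gave 8882 as labelled and 8948 without A replicate 1, testing all probe sets 8785 and 10429 (more features were tested), array weights 7866 as labelled, and leaving out both arrays that stood apart 7508. Deviations of same-numbered arrays from their group means correlated at -0.88, -0.61 and -0.56 between A and control. The A and control means each held an array that stood apart, so these values cannot show whether replicate numbers pair the arrays. Between A and G the same-numbered arrays gave 0.00045, -0.076 and 0.046, within the range of differently numbered ones (-0.0992 to 0.111). With the number as a replicate block 3453 genes were called as labelled and 5504 without A replicate 1. Centring on the hybridisation controls, which shifts all differences downwards, reversed called or listed genes: as labelled and without A replicate 1, CTSB was -0.28 and -0.33, RALB -0.13 and -0.16, RAP2C -0.26 and -0.33, DICER1 -0.16 and -0.18, RPLP1 -0.44 and -0.37, RPS6 -0.49 and -0.43, LAMP2 -0.078 and -0.077, SRSF11 -0.29 and -0.29, TFRC -0.27 and -0.28, PGK1 -0.11 and -0.032, YWHAZ -0.14 and -0.089, ANXA1 -0.37 and -0.38 and CNP -0.63 and -0.62. MMP2 was -0.018 as labelled and GLUL -0.67 without A replicate 1. TUBB3 was 0.034 with arrays centred on their medians, which moves every difference by the same amount. PECAM1 was 1.59 as the mean over its probe sets, where the brightest differed by -0.15 and the others by 1.88, 2.22 and 2.89. Why the probe sets of PECAM1 differ was not tested. Among gene results as labelled 3078 kept direction and side of the threshold, 158 became called, 55 lost the call and 16 reversed.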
